A study of Saccharomyces cerevisiae with 8 samples.

Results

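The transcripts of the histone genes were followed in 2 strains of Saccharomyces cerevisiae that differ in their tolerance of acetic acid. The set holds 10 genes, chosen by symbol from the annotation of the array. They are HTA1 and HTA2 for histone H2A, HTB1 and HTB2 for H2B, HHT1 and HHT2 for H3, HHF1 and HHF2 for H4, HTZ1 for the variant H2A.Z, and HHO1 for the linker histone. Of these, 9 were measured, out of 5449 S. cerevisiae genes, and HHF2 was not analysed because no probe set carried its symbol. All 9 lay above the array background on all 8 arrays, and so belong to the 3879 genes that were tested.

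The series compared NBRC 0224, labelled as sensitive to acetic acid, with NFRI 3145, labelled as tolerant, both at 30 °C. Cultures of each strain had either no acetic acid (0% AcOH) or 0.6% of it for 30 min (0.6% AcOH), which makes 4 groups of 2 arrays. A time is stated only for the 0.6% AcOH samples, so an acid response cannot be told apart here from effects of time or handling. Nothing in the labels says that the 2 arrays of a group came from separate cultures, so p-values measure the spread between arrays, which may be technical. Each value is the signal of a probe set on a linear scale, in intensity units, and the number of arrays limits the precision. The signal of 1 probe set cannot be set against that of another, so genes are compared below only by their differences between groups.

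Core histones H2A, H2B, H3 and H4 form the protein core around which DNA is wound in the nucleosome, H2A.Z replaces H2A near the start of many genes, and Hho1 binds the linker DNA. In budding yeast the core histone genes lie in pairs that are transcribed away from each other from a shared regulatory region, and their transcription peaks in S phase, when new DNA has to be packed. The HIR complex represses most of these pairs outside S phase, while Spt10 activates them. HTZ1 and HHO1 lie apart from the pairs.

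The gene table of the R64 assembly shows this layout through the order and names of the genes. HTA1 (YDR225W) neighbours HTB1 (YDR224C), HTA2 (YBL003C) neighbours HTB2 (YBL002W), HHT1 (YBR010W) neighbours HHF1 (YBR009C), and HHT2 (YNL031C) neighbours HHF2 (YNL030W). In each pair 1 name ends in W and the other in C, the letters for the 2 strands. HTZ1 (YOL012C) and HHO1 (YPL127C) have no histone gene beside them. The probe sets used for HTA2 (1777647_s_at) and HHF1 (1778426_s_at) carry the suffix of probe sets that can hybridise with more than 1 related transcript. The 2 H2A genes and the 2 H4 genes are close copies of each other, so these signals may hold both members of a pair.

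At both acid levels, the transcripts of most core histone genes were higher in NFRI 3145 than in NBRC 0224. With the strain difference averaged over both acid levels, 6 of the 9 genes were called higher in NFRI 3145 and none lower, by limma at a Benjamini-Hochberg adjusted p under 0.05. They were HTA1, HTA2, HTB1, HHT1, HHT2 and HHF1, while HTB2, HTZ1 and HHO1 were not called. The strains differed widely: 24.3% of the tested genes were called higher in NFRI 3145 and 35.4% lower, which are 942 and 1373 genes. After centring each array on its median the counts were 1571 and 971. The median log2 strain difference was 0.90 over the 9 genes and −0.14 over all tested genes. This averaged comparison was added after the values had been seen, and the 2 comparisons at single acid levels below were planned.

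The H3 genes had the largest strain differences of the 9. HHT1 read 70.7 and 67.6 without acid, then 39.2 and 100.1 with it in NBRC 0224, against 162 and 320, then 107 and 273 in NFRI 3145. The strains did not overlap, but the highest NBRC 0224 array lay just below the lowest NFRI 3145 array, and replicates differed up to 2.56-fold. The NBRC 0224 signals of HHT1 lay not far above the background of those arrays (31.5 to 43.9), which makes the size of its difference less certain. The averaged log2 strain difference of HHT1 was 1.59 ± 0.36 (SE, n = 4 arrays per strain, adjusted p = 0.00275). HHT2, the second H3 gene, read 317 and 433, then 396 and 199 in NBRC 0224, and 835 and 867, then 716 and 957 in NFRI 3145, in the same order of acid levels. All 4 NFRI 3145 arrays lay well above the NBRC 0224 arrays. Its log2 difference was 1.38 ± 0.22 (SE, adjusted p = 0.000246), or 2.60-fold.

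HHF1, the H4 gene next to HHT1, read 254 and 203, then 182 and 247 in NBRC 0224, against 356 and 628, then 446 and 637 in NFRI 3145. The strains were again separate, and the log2 difference was 1.19 ± 0.22 (SE, adjusted p = 0.000653), or 2.29-fold.

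Of the H2A genes, HTA1 read 6959 and 5198, then 5217 and 4324 in NBRC 0224, and 10125 and 8811, then 10769 and 10496 in NFRI 3145. No array of one strain overlapped the other, and the log2 difference was 0.91 ± 0.12 (SE, adjusted p = 4.56e-05), or 1.88-fold. Signals above 10000, a limit set here and not tested, may be compressed, so this value may be too small. The HTA2 probe set in use read 2528 and 1757, then 2795 and 2408 in NBRC 0224, and 3673 and 4016, then 4745 and 4400 in NFRI 3145, with a log2 difference of 0.84 ± 0.14 (SE, adjusted p = 0.000255).

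The second probe set of HTA2 (1775235_at), whose name carries no such suffix, did not give this difference. It read 130 and 92.2, then 136 and 147 in NBRC 0224, and 138 and 143, then 104 and 154 in NFRI 3145, so that the strains overlapped. Its log2 difference was 0.10 ± 0.20 (SE, adjusted p = 0.688), in an alternative chosen after the data were seen. The call for HTA2 therefore rests on which of its 2 probe sets is read, and hybridisation of HTA1 transcripts to the probe set in use was not tested. The plot of the H2A probe sets shows all 3.

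**Figure D1:**
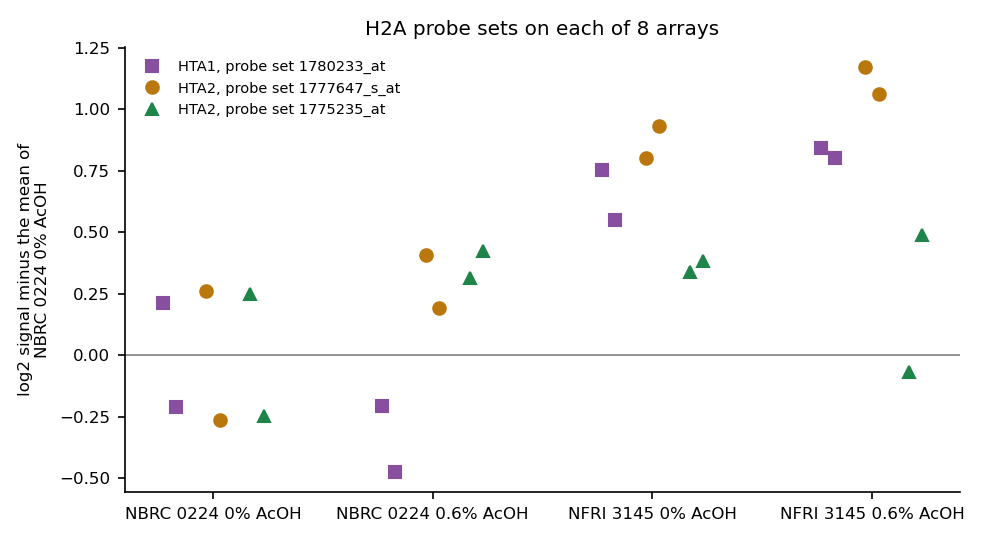
Log2 signal of the probe set of HTA1 and of both probe sets of HTA2 on each of 8 arrays, relative to the mean of that probe set in NBRC 0224 at 0% AcOH (y axis) and by group (x axis); each point is 1 array. HTA1 and the HTA2 probe set 1777647_s_at lie higher in NFRI 3145, whereas 1775235_at overlaps between the strains.

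The H2B genes differed in their own values. HTB1 read 186 and 176, then 202 and 314 in NBRC 0224, and 315 and 491, then 324 and 503 in NFRI 3145. The highest NBRC 0224 array almost reached the lowest NFRI 3145 array, and the log2 difference was 0.90 ± 0.22 (SE, adjusted p = 0.00446). HTB2 read 7815 and 6396, then 8497 and 6591 in NBRC 0224, and 6466 and 7198, then 9520 and 8999 in NFRI 3145. The strains overlapped, and its log2 difference was 0.13 ± 0.11 (SE, adjusted p = 0.355, 95% interval −0.12 to 0.38). The difference between HTB1 and HTB2 was not tested.

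H2A.Z and the linker histone showed no called strain difference when the acid levels were averaged. HTZ1 read 1294 and 887, then 783 and 428 in NBRC 0224, and 831 and 732, then 1037 and 1019 in NFRI 3145, with a log2 difference of 0.19 ± 0.20 (SE, adjusted p = 0.455, 95% interval −0.26 to 0.63). HHO1 read 372 and 315, then 330 and 262, against 341 and 254, then 360 and 404, with a log2 difference of 0.08 ± 0.17 (SE, adjusted p = 0.716, 95% interval −0.30 to 0.46). For both genes the arrays of the strains overlapped.

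**Figure D2:**
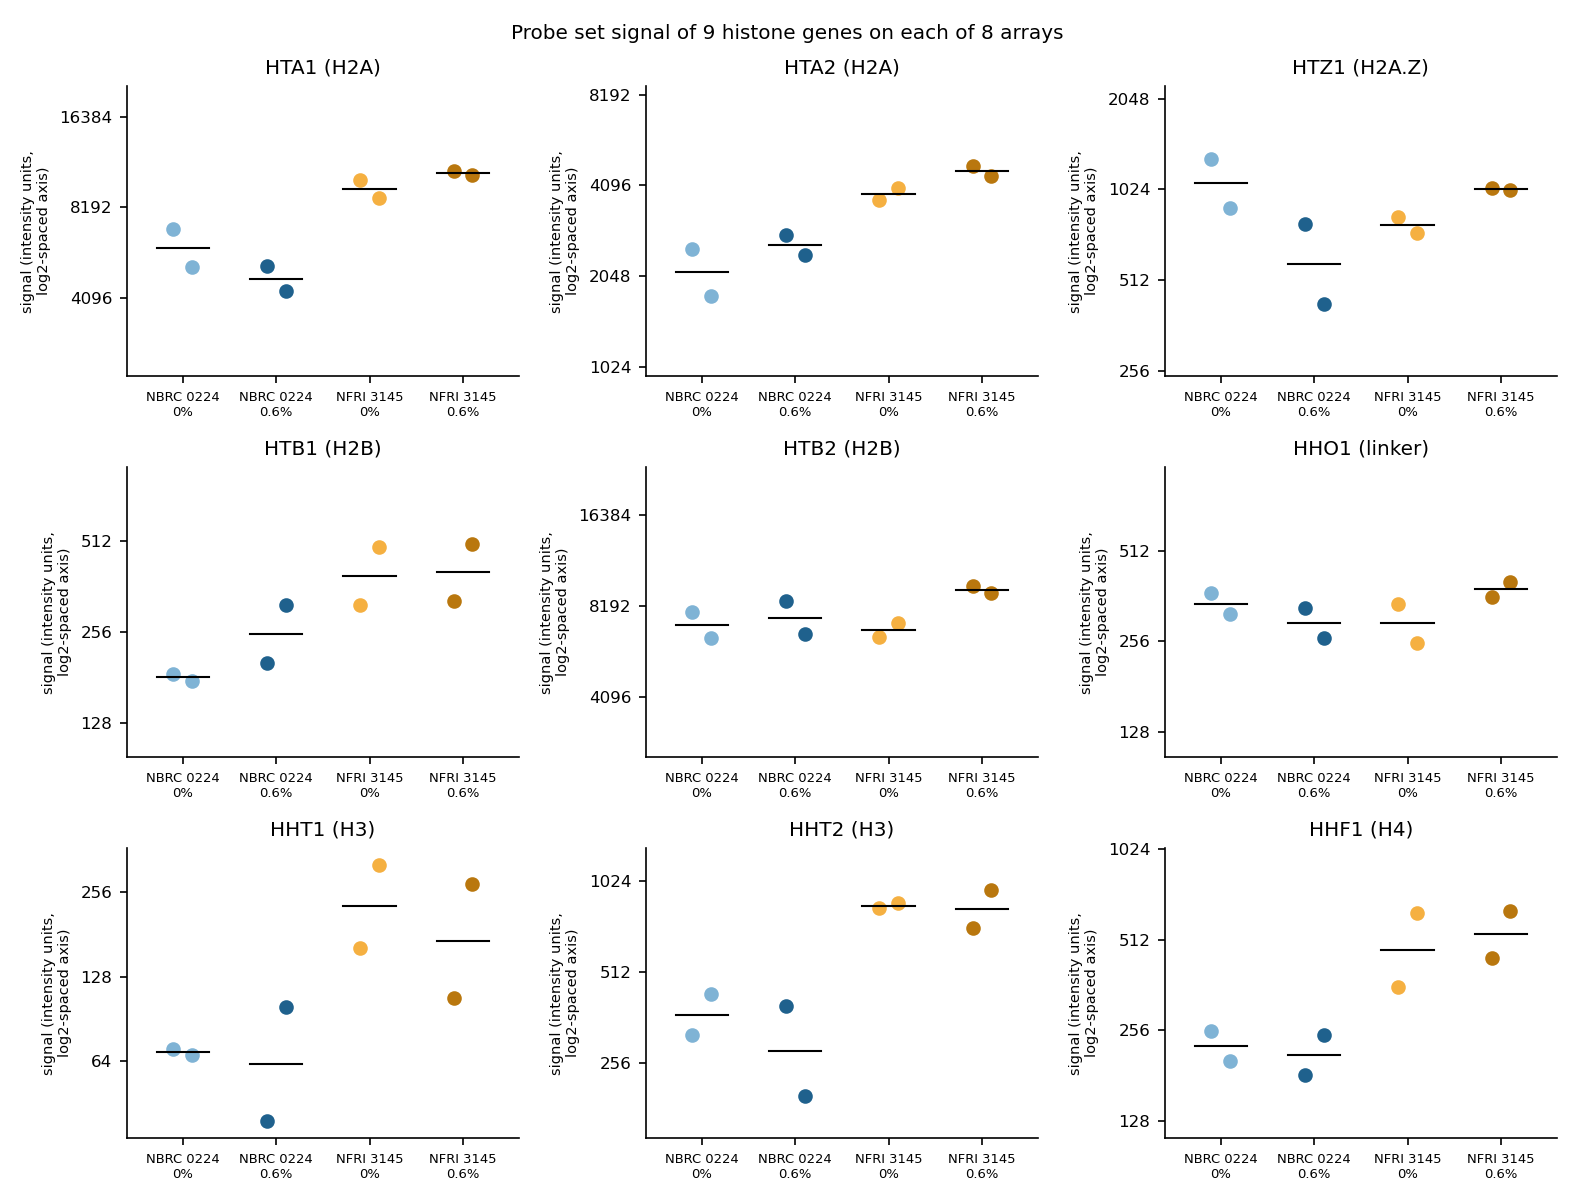
Probe set signal in intensity units (y axis, log2-spaced) of 9 histone genes by group (x axis, strain and acetic acid level). Each point is 1 array, with replicate 1 on the left, and bars are geometric means of 2 arrays. HTA1, HTA2, HTB1, HHT1, HHT2 and HHF1 read higher on all 4 NFRI 3145 arrays than on any NBRC 0224 array.

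For 6 of the 9 genes, all 4 NFRI 3145 arrays exceeded all 4 NBRC 0224 arrays, which held for 17.8% of the tested genes. HHT1 stood at the 93.4th percentile of all averaged strain differences, HHT2 at the 91.8th and HHF1 at the 89.4th. HTA2, HTB1 and HTA1 stood at percentiles 83.1, 84.5 and 84.6, as the distribution of strain differences shows.

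**Figure D3:**
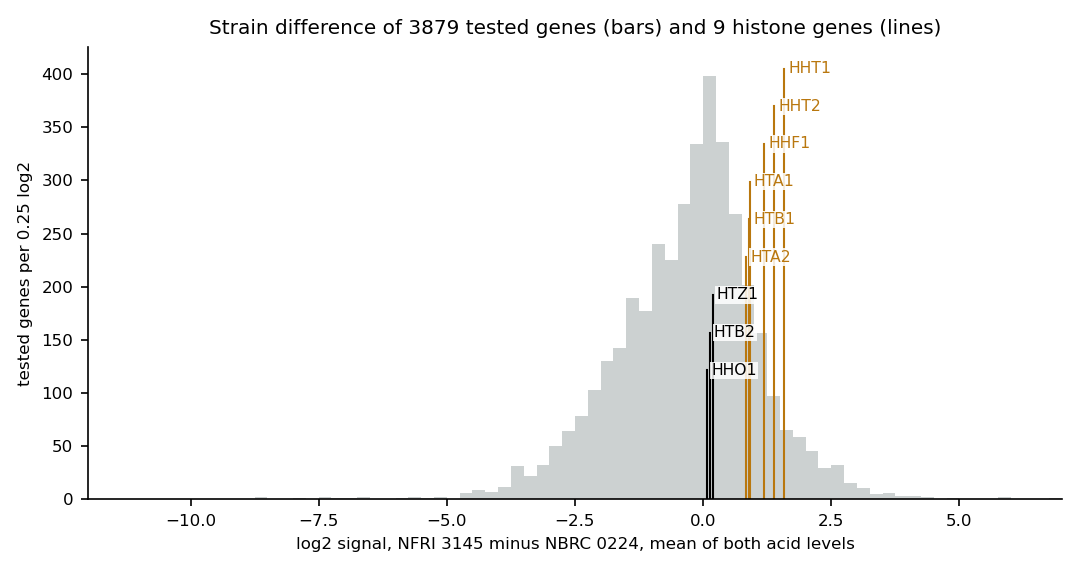
Distribution of the log2 strain difference averaged over both acid levels (x axis) over 3879 tested genes, as genes per 0.25 log2 (y axis, grey bars), with the 9 histone genes as lines whose height has no meaning. The 6 called genes, in brown, lie between 0.84 and 1.59, and HTB2, HTZ1 and HHO1, in black, between 0.08 and 0.19.

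Whether the other 3 genes were called depended on the scaling of the arrays. The median strain difference of all tested genes was −0.14 as deposited, −0.01 after quantile normalization and 0.31 after centring each array on its median. Under all 3 scalings the 6 genes were called higher. HHO1 and HTZ1 were also called higher after quantile normalization (0.52 and 0.54) and after median centring (0.53 and 0.64), and HTB2 only after median centring (0.58). The share of tested genes above background was 78.7% to 91.3% on NBRC 0224 arrays and 70.4% to 82.6% on NFRI 3145 arrays, and their median signal was 160 to 189 and 115 to 143 intensity units. The geometric mean of 4 spiked hybridisation controls overlapped, with 3710 to 5073 on NBRC 0224 arrays and 4083 to 4921 on NFRI 3145 arrays. The part of these array properties in the histone values was not tested beyond the scalings. More cells in S phase and more histone RNA per such cell in NFRI 3145 cannot be told apart in these bulk samples. The probes were not compared with the genome sequences of the 2 strains.

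Without acetic acid, 6 of the 9 genes were called higher in NFRI 3145, against 21.1% of all tested genes. HHT1 differed by 1.72 ± 0.52 (log2, SE, n = 2 arrays per group), HHT2 by 1.20 ± 0.32, HTB1 by 1.12 ± 0.32, HHF1 by 1.06 ± 0.31, HTA2 by 0.87 ± 0.19 and HTA1 by 0.65 ± 0.17, with adjusted p between 0.00316 and 0.0159. Both NFRI 3145 arrays exceeded both NBRC 0224 arrays in these 6 genes, which held for 38.5% of the tested genes. HTZ1 pointed the other way, at −0.46 ± 0.29 with both NFRI 3145 arrays lower, and was not called (adjusted p = 0.208). Among the 8 fits that each left out 1 array, the 6 calls fell to 3 without NBRC 0224 0% AcOH replicate 1, to 2 without its replicate 2, and to 3 without NFRI 3145 0% AcOH replicate 2. HTA2 was the only gene called in all 8.

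Under 0.6% AcOH, 6 of the 9 genes were again called higher in NFRI 3145, against 17.4% of all tested genes. HHT2 differed by 1.56 ± 0.32 (log2, SE, n = 2 arrays per group), HHT1 by 1.45 ± 0.52, HHF1 by 1.33 ± 0.31, HTA1 by 1.16 ± 0.17, HTZ1 by 0.83 ± 0.29 and HTA2 by 0.82 ± 0.19. Their adjusted p ran from 0.00019 for HTA1 to 0.0379 for HHT1. HTB1 was not called at 0.68 ± 0.32 (adjusted p = 0.0997), although its adjusted p was 0.049 with the replicate number as a block. The count also depended on the scaling, with 8 of the 9 genes called after quantile normalization and 9 after median centring. HTB1 was among them (adjusted p = 0.0251 and 0.00748 by limma). Of all tested genes, 676 were called higher as deposited, 834 after quantile normalization and 1159 after median centring. All 9 genes read higher on both NFRI 3145 arrays than on both NBRC 0224 arrays, which held for 26.8% of the tested genes. In the 8 fits that each omit an array, HTA1 and HHT2 were called in all, HTA2 and HHF1 in 7, HTZ1 in 5 and HHT1 in 4. The 6 calls fell to 3 without NFRI 3145 0.6% AcOH replicate 2. HTZ1 differed by 0.39 (adjusted p = 0.218) when NBRC 0224 0.6% AcOH replicate 2 was omitted. HHT1 differed by 0.77 (adjusted p = 0.28) when replicate 1 of that group was omitted, and by 0.78 (adjusted p = 0.31) without NFRI 3145 0.6% AcOH replicate 2.

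**Figure D4:**
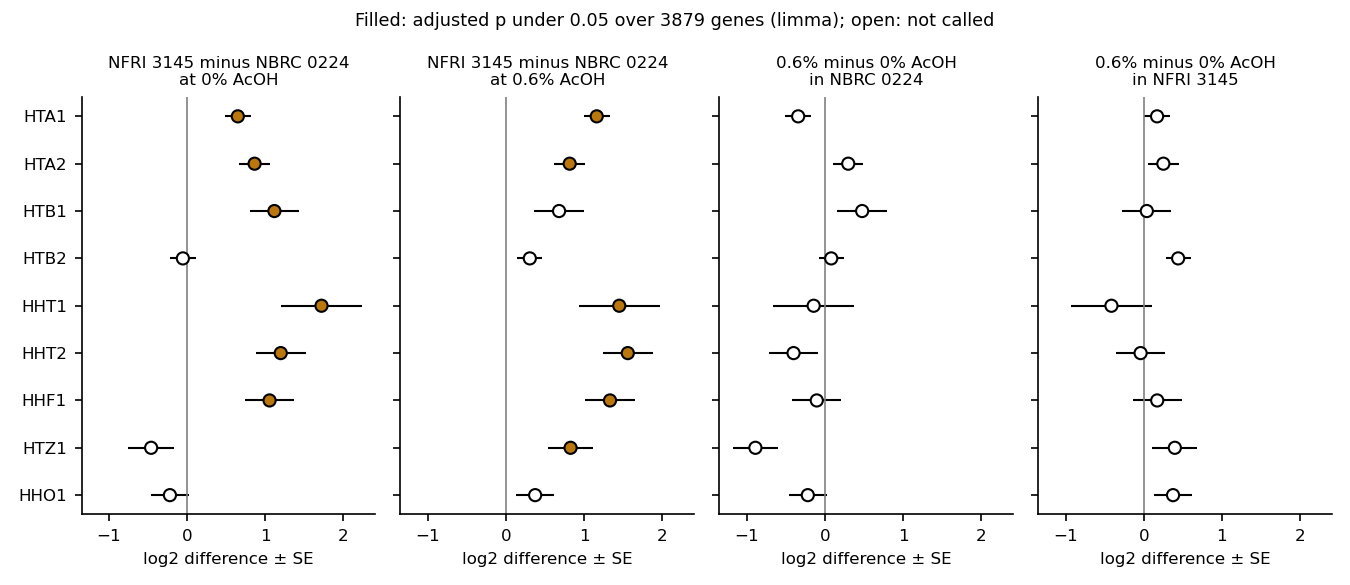
Log2 differences with their SE (x axis) of 9 histone genes (y axis) in the strain difference at each acid level and the acid response in each strain, each comparing 2 arrays with 2. Filled points were called at an adjusted p under 0.05, and all filled points lie in the 2 strain differences.

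Acetic acid changed no histone gene past the threshold in either strain. In NBRC 0224, none of the 9 genes was called by limma, against 8.4% of the tested genes, and 1 had an unadjusted p under 0.05. That gene was HTZ1, whose signals of 1294 and 887 at 0% AcOH stood against 783 and 428 at 0.6% AcOH (−0.89 ± 0.29, log2, SE, n = 2 arrays per group, adjusted p = 0.0894, 95% interval −1.52 to −0.25). The adjusted p was 0.0425 with the replicate number as a block. Without NBRC 0224 0.6% AcOH replicate 1, HTZ1 stood at −1.32 (adjusted p = 0.00706) and HHT2 at −0.90 (adjusted p = 0.0449), both called lower. Both of the other H2A genes stood closer to 0, with HTA1 at −0.34 ± 0.17 and HTA2 at 0.30 ± 0.19. The remaining 6 lay between −0.40 for HHT2 and 0.48 for HTB1. The 95% interval of HHT1, the least precise, ran from −1.27 to 0.99.

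In NFRI 3145, again none of the 9 genes was called, against 13.5% of the tested genes, and 1 had an unadjusted p under 0.05. HTB2 went from 6466 and 7198 to 9520 and 8999 (0.44 ± 0.16, log2, SE, n = 2 arrays per group, adjusted p = 0.0965). Its adjusted p was 0.0255 after median centring and 0.0154 in a fit of the 4 NFRI 3145 arrays alone. It was 0.0274 and 0.0267 without NBRC 0224 0.6% AcOH replicates 1 and 2. HTZ1 stood at 0.40 ± 0.29 and HHO1 at 0.37 ± 0.25, with adjusted p of 0.422 and 0.367. HHT1 had the lowest value at −0.41 ± 0.52.

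The acid response averaged over both strains likewise called none of the 9 genes, against 17.4% of the tested genes in either direction, and HTB2 alone had an unadjusted p under 0.05 (0.26 ± 0.11, adjusted p = 0.139). The 9 values lay between −0.28 and 0.28, with a median of 0.03, where all tested genes had a median of −0.09. After median centring HTA2 and HTB2 were called higher, at 0.47 and 0.46. Without NBRC 0224 0.6% AcOH replicate 2, HTB2 was called at 0.35.

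The 2 strains were not shown to differ in the response of any histone gene, and 0.851% of the tested genes had a called difference of responses. HTZ1 had the largest value of the 9. Its signal was lower at 0.6% AcOH on both arrays of NBRC 0224 and higher on both of NFRI 3145, and the responses differed by 1.29 ± 0.41 (log2, SE, unadjusted p = 0.00921, adjusted p = 0.157 by limma, n = 2 arrays per group). It was the only gene of the 9 with an unadjusted p under 0.05. Without NBRC 0224 0.6% AcOH replicate 1 the difference was 1.72 with an adjusted p of 0.0174. HTA1, at 0.51 ± 0.24 (adjusted p = 0.299), came closest among the core histone genes.

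Neighbouring genes that are transcribed away from each other were compared by their differences between groups. HTA1 and HTB1 had nearly equal averaged strain differences (0.91 and 0.90), while their acid responses were −0.34 and 0.48 in NBRC 0224 and 0.17 and 0.04 in NFRI 3145. HTA2 and HTB2 had acid responses of 0.30 and 0.08 in NBRC 0224 and 0.25 and 0.44 in NFRI 3145, and strain differences of 0.84 and 0.13. The other HTA2 probe set, 1775235_at, had a strain difference of 0.10, so the gap to HTB2 rests on the probe set read. HHT1 and HHF1 had strain differences of 1.59 and 1.19, and acid responses of −0.14 and −0.10 in NBRC 0224 and −0.41 and 0.17 in NFRI 3145. These are side-by-side values of the fit, and differences between genes were not tested.

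Some histone genes also differed together between the replicates of a group. In NBRC 0224 at 0.6% AcOH and in both NFRI 3145 groups, replicate 2 read higher than replicate 1 for HTB1 (1.55-fold, 1.56-fold and 1.55-fold), HHT1 (2.56-fold, 1.97-fold and 2.54-fold) and HHF1 (1.36-fold, 1.76-fold and 1.43-fold). In NBRC 0224 at 0% AcOH the 3 genes read lower in replicate 2, by 1.05-fold for HTB1 and HHT1 and by 1.25-fold for HHF1. HTA1 read lower in replicate 2 in all 4 groups, by 1.03-fold to 1.34-fold. HHT1 and HHF1 correlated at r = 0.93 over the 8 arrays, which span both strains and both acid levels. HHT1 and HTB1 correlated at r = 0.92, and HTB1 and HHF1 at r = 0.91. These values include the strain differences of the 3 genes. HTZ1 and HHO1 correlated with each other at r = 0.79 and with these 3 genes at r between −0.20 and 0.18. With HTA1, HTA2, HTB2 and HHT2 their r lay between 0.23 for HTA2 and HTZ1 and 0.60 for HTB2 and HHO1.

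Among 2322 other genes above background on all 8 arrays, those most like the mean profile of the 7 core histone genes were RPS19A (r = 0.99), RPL9A (r = 0.99), RPL40B (r = 0.98), NOG1 (r = 0.98) and BNA1 (r = 0.98). RPS19A, a gene of the small ribosomal subunit, had mean signals of 867 without acid and 843 with it in NBRC 0224, against 3109 and 3597 in NFRI 3145. All 5 were higher in NFRI 3145 at both acid levels. The profile is mainly a step between the strains, and 243 of the 2322 genes correlated with it at r over 0.9. These values describe 8 arrays and carry no test.

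Genes that act on histones or mark the cell cycle were counted by lists. Of 12 regulators of histone transcription, 4 were tested. In the averaged acid response 2 of these 4 were called lower and none higher, against 11.7% and 5.7% of all tested genes. SPT10, the activator of histone genes, read 86.9 and 98.0 in NBRC 0224 at 0% AcOH and lay below background on both arrays at 0.6% AcOH, which makes it at least 2.47-fold lower. In NFRI 3145 it went from 56.7 and 73.2 to below background on both arrays, at least 1.54-fold lower. The averaged change of SPT10 had an adjusted p of 0.00287 by limma, and alone it was called in NBRC 0224 but not in NFRI 3145. SPT10 passed the filter only through its 0% AcOH arrays, so its call could hardly have gone the other way. The p also rests on acid readings below background, so nothing is read from it or from the count of 2. HIR3, a subunit of the repressing HIR complex, was at least 1.40-fold lower in NBRC 0224 and at least 1.38-fold lower in NFRI 3145, with 3 of 4 acid arrays below background. HIR3 was called in the averaged response (adjusted p = 0.0363 by limma) but in neither strain alone. Between the strains HIR1 was called higher in NFRI 3145 (0.57 ± 0.19, log2, SE, adjusted p = 0.0214) and HIR2 lower (−0.67 ± 0.24, adjusted p = 0.0316), both subunits of the same complex. For HIR2 the arrays of the strains overlapped, and it was called at neither acid level alone.

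Of the histone chaperones and the enzymes that acetylate new histones, 10 of 15 were tested, with 3 called higher and 5 lower in NFRI 3145 when both acid levels were averaged. For this and the lists that follow, the shares over all tested genes were 24.3% higher and 35.4% lower, and with so few genes a list nothing is read from a count near them. A gene below background on all arrays of a strain, or of an acid level, passed the filter only through the other arrays. Such a gene could hardly be called in the other direction, so its call adds nothing to a list count. The chaperone genes VPS75 and HIF1 were higher by 0.82 ± 0.13 and 0.97 ± 0.20 (log2, SE, adjusted p = 0.000193 and 0.00143). SPT16, a subunit of the FACT complex, was at least 1.40-fold lower there, below background on all 4 NFRI 3145 arrays. HAT2, a subunit of a histone acetyltransferase, was at least 2.08-fold lower, with 2 of 4 NFRI 3145 arrays below background. KAP123, a carrier that imports histones into the nucleus, was called lower (−0.46 ± 0.12, log2, SE, adjusted p = 0.00477), but the arrays of the strains overlapped, and its signals lay near or above 10000, where they may be compressed. In the averaged acid response MSI1, a subunit of the chromatin assembly factor CAF-1, was called higher (0.62 ± 0.18, adjusted p = 0.0313). RTT109, which acetylates new H3, was called lower (adjusted p = 0.00849), and in NFRI 3145 it went below background at 0.6% AcOH, at least 1.90-fold lower.

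Of the SWR1 complex, which places H2A.Z, 10 of 13 genes were tested, and 1 was called higher and 2 lower in NFRI 3145. ARP6 was the higher one (0.82 ± 0.17, log2, SE, adjusted p = 0.0014). The ATPase genes RVB1 and RVB2 were lower, by at least 1.18-fold and 1.83-fold, below background on all 4 NFRI 3145 arrays. Both were therefore tested only through NBRC 0224, and for both the arrays of the strains overlapped. SWC5 was called higher at 0% AcOH (0.93 ± 0.28, adjusted p = 0.0154). The gene of the motor subunit, SWR1, was called lower in the averaged acid response (adjusted p = 0.019 by limma). It was at least 1.45-fold lower in NBRC 0224 and at least 1.77-fold lower in NFRI 3145. That p rests on low readings, with 1 of 2 acid arrays below background in NBRC 0224 and both in NFRI 3145. Of the genes that remove surplus histone transcripts or proteins, 5 of 8 were tested, with 1 higher and 2 lower in NFRI 3145. TOM1, a ubiquitin ligase, was 2.52-fold higher. PAT1, a factor of mRNA decay, was 5.02-fold lower. RRP6, a nuclease of the nuclear exosome, was at least 1.19-fold lower, below background on all 4 NFRI 3145 arrays. CSE4, which encodes the centromeric H3 variant, stayed below background on all 8 arrays and was not tested.

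Genes of DNA replication, which are also transcribed around S phase, had a median log2 strain difference of −0.42. The median was 0.90 for the 9 histone genes and −0.14 for all tested genes. Of 24 genes 18 were tested, and 3 were called higher and 8 lower in NFRI 3145, against 24.3% and 35.4% of all tested genes. The 8 included RFC5, RFA1 and POL3, whose NFRI 3145 means lay below background. The median and the count therefore rest in part on such readings, and nothing is read from them. POL30, the sliding clamp of replication, was at least 4.86-fold higher, with 3 of 4 NBRC 0224 arrays below background. RFA2, a subunit of the single-strand binding factor, was 2.42-fold higher, while RFA3 of the same factor was 4.14-fold lower. POL2, the catalytic subunit of polymerase epsilon, was 3.20-fold lower. In the averaged acid response 4 of the 18 were called lower and none higher, against 11.7% and 5.7% of all tested genes. In NFRI 3145 alone 2 were called higher, RFA2 (0.69 ± 0.19, log2, SE, adjusted p = 0.0344) and RFA3 (0.95 ± 0.27, adjusted p = 0.042), and 2 lower. CTF4, below background on all 4 acid arrays and so tested only through the 0% AcOH arrays, was at least 1.47-fold lower in NBRC 0224. In NFRI 3145 it was at least 1.62-fold lower. PRI2, a subunit of primase, was at least 1.29-fold and 4.54-fold lower, with 1 of 2 acid arrays below background in each strain. POL12, a subunit of polymerase alpha, changed by −0.71 ± 0.21 (log2, SE, adjusted p = 0.04).

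Of the G1 and S phase cyclins and regulators, 8 of 10 were tested, with 2 higher and 2 lower in NFRI 3145. The transcription factor genes HCM1 and YOX1 were 2.65-fold and 1.92-fold higher. The S phase cyclin genes CLB5 and CLB6 were at least 2.99-fold and 2.40-fold lower, with 2 and 3 of 4 NFRI 3145 arrays below background. Among the genes of G2 and M phase 4 were tested and 3 were lower, namely the cyclin gene CLB1 (2.00-fold), CDC5 (at least 1.21-fold) and HST3 (at least 1.28-fold), the last 2 below background on all 4 NFRI 3145 arrays. Among those of M and early G1 phase 13 were tested, with 1 higher and 6 lower (all tested genes, 24.3% and 35.4%). The lower ones included the cell wall genes SCW11 (6.33-fold), DSE2 (2.16-fold), EGT2 (1.41-fold) and CTS1 (1.30-fold). NBRC 0224 means of DSE2, EGT2 and CTS1 ran from 8982 to 10659, where signals may be compressed, so these 3 folds may be too small. Of the cohesin genes 2 were tested and MCD1 was higher, at least 2.32-fold, with 3 of 4 NBRC 0224 arrays below background. In the averaged acid response the only called gene of these 4 lists was ASH1, a repressor of mating type switching (−0.74 ± 0.20, log2, SE, adjusted p = 0.0236). In NFRI 3145 alone 1 of the 8 G1 and S phase genes was called higher and 1 lower, against 3.82% and 9.67% of all tested genes. They were CLB5 (at least 1.58-fold), below background on both 0% AcOH arrays, and PCL1, whose mean signal went from 49.4 to 2.67. The NFRI 3145 arrays had backgrounds of 38.9 to 43.6, so the second PCL1 mean lay far below background. Its means in NBRC 0224, 17.3 and 18.2, lay below background too, and the size of its fall is not read.

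**Figure D5:**
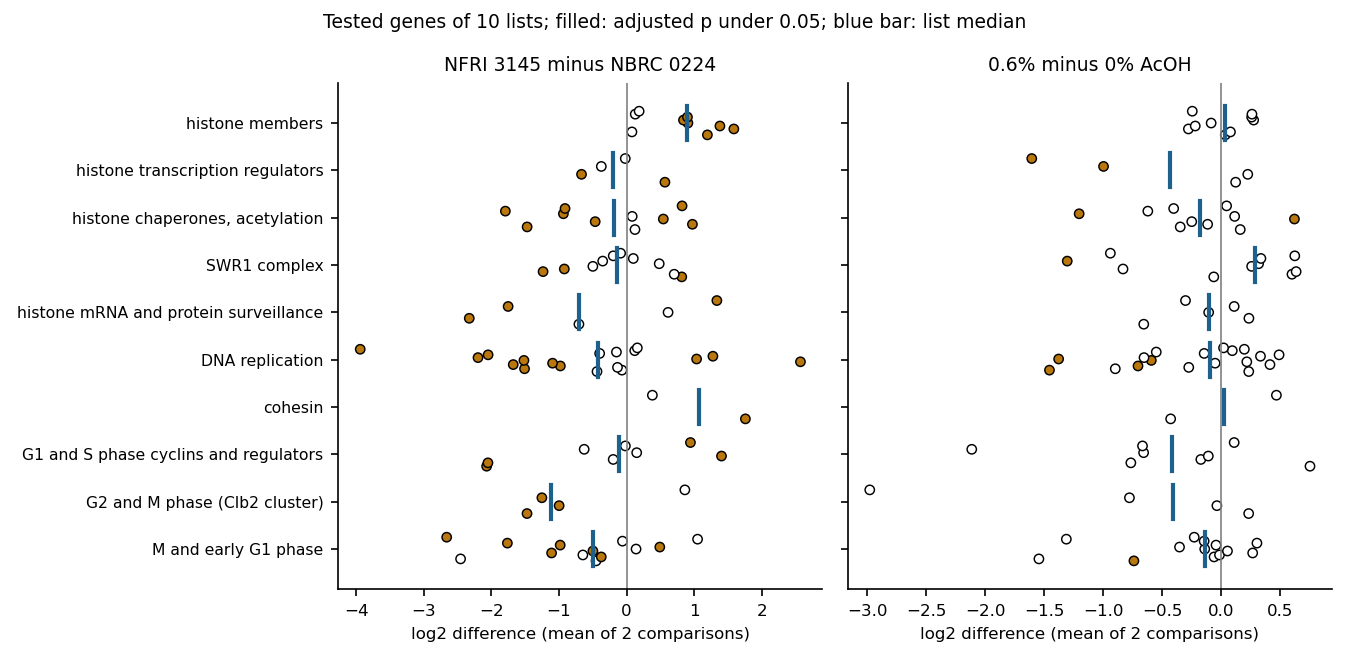
Log2 differences (x axis) of the tested genes of 10 lists (y axis) in the strain difference averaged over both acid levels (left) and the acid response averaged over both strains (right). Each point is 1 gene, filled where called at an adjusted p under 0.05, and blue bars are list medians. The histone genes have a median of 0.90 on the left and 0.03 on the right, and the replication genes −0.42 and −0.10.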

How the data were processed

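Deposited values were linear probe set signal intensities of 8 one-colour Affymetrix yeast arrays, processed by the authors with GCOS, per the submitters' processing notes, which give no version. Their means, trimmed by 2% at each end, lay between 500.7 and 500.8, so the arrays had been scaled alike. Probe sets were named through the platform annotation and the R64 gene table. Of 10928 probe sets, 5498 matched 5449 S. cerevisiae genes, and a gene with several was represented by its brightest on average. The 95th percentile of 1746 Schizosaccharomyces pombe probe sets served as each array's background (31.5 to 43.9), and the 3879 genes above it on at least 2 arrays were tested. Bounds written as "at least" raise arrays below background to it.

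The 8 arrays entered 1 linear model on the log2 scale (limma 3.58.1, R 4.3.3), with a mean for each of 4 groups, an intensity trend in eBayes, 4 residual degrees of freedom, and Benjamini-Hochberg adjustment over 3879 genes. The steps were tested on simulated data. Plots used matplotlib 3.10.9 in Python 3.11.15. All members were named, and from each list up to 3 called genes with the smallest p in each strain difference and in the averaged acid response. The members and lists were chosen with earlier results of these data known. Promoter and protein sequences were not used here.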

Additional observations from a re-analysis of the deposited data

How the results depend on the processing

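The 6 calls of the averaged strain difference held under quantile normalization, median centring, no filter, a filter on all 8 arrays, log2(signal + 50), eBayes without trend, the replicate block, the mean of a gene's probe sets and each array left out in turn, with 6 to 9 histone genes called. With the other HTA2 probe set, added after seeing the data, 5 were called, and the HTA2 difference at 0.6% AcOH reversed to −0.16 without a call. With 1 array left out, 2 to 6 genes were called at 0% AcOH, 3 to 6 at 0.6% AcOH, 0 to 2 for the acid response in NBRC 0224, and 0 to 1 each for that in NFRI 3145, the averaged response and the difference of responses. With all arrays, median centring called 1 gene in NFRI 3145 and 2 in the averaged response, a fit of the compared arrays alone called 1 in NFRI 3145, and the replicate block called 1 in NBRC 0224. Replicate numbers did not pair the arrays (r of deviations from −0.054 to 0.054 across genes), and the block changed no call but those of HTZ1 in NBRC 0224 and HTB1 at 0.6% AcOH. Without the trend, HHT1 and HTA1 at 0% AcOH (adjusted p = 0.0655 and 0.0514) and HHT1 and HTZ1 at 0.6% AcOH (0.113 and 0.0945) lost their calls by limma. At 0.6% AcOH, HHT1 also lost its call without the filter (0.0655), HHT1 and HTZ1 in the fit of the compared arrays alone (0.06 and 0.0548), and HTA2 with the mean of its probe sets (0.272). The causes were not tested. Changes of sign in values never called were not counted as reversals. The other gene lists were not recomputed under these alternatives. Low signal limits SPT10, HIR3 and other dim genes, and 2 arrays a group limit every value.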
